A study of Homo sapiens with 14 samples.

Results

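The 10 genes described here encode oxygen-dependent dioxygenases, enzymes that split molecular oxygen and put 1 of its atoms into a substrate while 2-oxoglutarate is turned into succinate, with iron and usually ascorbate as cofactors. They were taken by symbol from a fixed list and are 10 of the 18417 genes that the array annotation names with a single symbol. That list was made with earlier results of these data known. EGLN1 and EGLN3 are prolyl hydroxylases of the hypoxia-inducible factor (HIF). P4HA1 and P4HA2 are the catalytic subunits of collagen prolyl 4-hydroxylase. PLOD1 and PLOD2 are lysyl hydroxylases of collagen. KDM3A, KDM4B, KDM4C and KDM5B are histone lysine demethylases of the Jumonji C (JmjC) family. Each gene was read by 1 probe set. Of the 10, 8 passed the filter on dim genes and entered the tests, and PLOD2 and KDM4B lay below it.

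RNA of a human gastric carcinoma line was hybridised to 14 whole-transcript Affymetrix arrays, each of a different condition, to follow gene expression in 3 models of epithelial-mesenchymal transition (EMT). The labels call the line MKN28 and the paper calls it MKN74. Of the parental line there were 9 arrays: 1 untreated on day 2, 2 at 1% oxygen (hypoxia, days 1 and 2), 2 with 10 ng/ml TGFβ1 (days 1 and 2), and the same 4 treatments with ANGPTL4 knockdown. The other 5 arrays were of the Snai1ER derivative, which carries a Snai1-ER transgene that 4-hydroxytamoxifen (4-OHT) activates: 1 untreated on day 4, 2 with 20 ng/ml 4-OHT (days 2 and 4), and the same 2 with knockdown by an shRNA against ANGPTL4. ANGPTL4 encodes a secreted protein that binds lipoprotein lipase. The parental knockdown is not specified in the labels, and the paper describes siRNA for that line and a doxycycline-inducible shRNA for the Snai1ER line. Neither untreated array has a knockdown partner, hypoxia and TGFβ1 share the 1 untreated parental array, and no condition was repeated.

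Cells adjust to low oxygen through HIF, whose alpha subunits are hydroxylated by the EGLN enzymes in oxygen and are then bound by VHL and destroyed. When oxygen falls, HIF accumulates and raises its target genes, and several dioxygenase genes are textbook targets, EGLN3 and KDM3A among them. Collagen hydroxylation also needs oxygen: the P4HA enzymes hydroxylate proline to make the triple helix stable, and the PLOD enzymes hydroxylate lysine for cross-links. The JmjC demethylases take methyl groups from histone lysines, with KDM3A, KDM4B and KDM4C acting mainly on marks of silent chromatin and KDM5B on a mark of active promoters.

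The stretches of DNA just before the start sites are shown for the 7 genes that the hypoxia results below turn on. Each is the last 100 bases before the RefSeq start, 5′ to 3′ on the gene's strand, in the build GRCh38.p14, with capitals on every ACGTG or GCGTG on either strand, the core letters of the hypoxia response element. The windows are EGLN1 at chr1:231422288-231422387 (minus strand), EGLN3 at chr14:33951075-33951174 (minus), P4HA1 at chr10:73096867-73096966 (minus), P4HA2 at chr5:132227092-132227191 (minus), KDM3A at chr2:86441271-86441370 (plus), KDM4C at chr9:6757873-6757972 (plus) and KDM5B at chr1:202808422-202808521 (minus).
EGLN1: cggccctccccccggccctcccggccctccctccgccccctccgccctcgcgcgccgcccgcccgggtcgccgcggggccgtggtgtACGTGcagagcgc
EGLN3: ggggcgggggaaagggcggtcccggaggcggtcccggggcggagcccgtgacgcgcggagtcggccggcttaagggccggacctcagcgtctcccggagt
P4HA1: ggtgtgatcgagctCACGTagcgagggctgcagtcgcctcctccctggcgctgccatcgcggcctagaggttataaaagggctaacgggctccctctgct
P4HA2: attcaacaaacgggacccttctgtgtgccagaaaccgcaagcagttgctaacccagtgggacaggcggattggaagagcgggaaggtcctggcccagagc
KDM3A: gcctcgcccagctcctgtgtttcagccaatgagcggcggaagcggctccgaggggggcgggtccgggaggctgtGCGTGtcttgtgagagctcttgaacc
KDM4C: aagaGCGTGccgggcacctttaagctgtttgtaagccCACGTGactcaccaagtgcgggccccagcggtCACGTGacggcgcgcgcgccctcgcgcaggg
KDM5B: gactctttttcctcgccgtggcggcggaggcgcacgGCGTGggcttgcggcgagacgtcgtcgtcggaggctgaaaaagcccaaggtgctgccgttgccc

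The windows of 250 bases before the start were searched on both strands. ACGTG was found in 5 of the 10 genes and in 18.5% of 35116 RefSeq windows of the same length, and GCGTG in 6 of the 10 and in 32.2% of all windows. Either was found in 8 of the 10, against 43.2% of all windows. Those 8 include PLOD1, PLOD2 and KDM4B (2, 3 and 4 matches), which are not shown and on which the hypoxia results below do not turn. A relation between matches and the hypoxia response was not tested. In EGLN1 the match ends 9 bases before the start, and in P4HA1 it is on the opposite strand, 82 to 86 bases before the start. The 2 runs of CACGTG in KDM4C hold ACGTG on both strands, which counts each of them as 2 overlapping matches. EGLN3 and P4HA2 have neither core in their windows. The windows start at 1 annotated start site per gene (the first of 2 for KDM3A), which for KDM3A, P4HA2 and KDM4C lies inside the annotated span of the gene, and a match in these letters is a description of the sequence, not of binding.

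All values are log2 levels after quantile normalization over the 14 arrays, unless they are said to be as deposited. This was done because the medians of all probe sets as deposited were 5.997 to 6.162 on 12 arrays but 5.23 and 5.19 on the TGFβ1 arrays without knockdown. As deposited, the median gene differed from the untreated array by -0.45 and -0.47 on those 2 arrays, and by 0.02 and 0.00 after quantile normalization. The hypoxia day 1 array with knockdown stood apart: its genes deviated from the average of the remaining arrays with an SD of 0.72, and those of the other 13 arrays with SDs of 0.27 to 0.56. Epithelial markers were all above the filter (7 of 7, CDH1 at 10.52 to 11.40), as were 1 of 6 fibroblast markers (COL1A1), 1 of 4 leukocyte markers (CD68) and 0 of 4 endothelial markers, with PTPRC, which marks leukocytes, at 3.02 to 3.91. SNAI1 levels were 5.48 to 6.07 in the parental line and 8.74 to 9.78 in the Snai1ER line. Those of ANGPTL4 were 4.97 to 5.39 throughout, below the filter level of 5.90, so its probe set does not check the knockdown labels.

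Under hypoxia, EGLN3, P4HA1, P4HA2 and KDM3A stood 2.66-fold to 3.99-fold above the untreated array on both days. EGLN1 and KDM4C were 1.49-fold to 1.62-fold higher, KDM5B 1.25-fold to 1.28-fold higher, and PLOD1 did not move in a common direction. Of the 8 genes above the filter, 4 were at least 1.5-fold higher on both days, which is a rule on the fold alone and carries no p-value, as every condition has a single array. Of all 11050 genes above the filter, 334 (3.02%) were that much higher and 216 (1.95%) that much lower, and none of the 8 was lower. In cell lysates, fewer cells of a kind and less RNA per cell cannot be told apart.

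**Figure D1:**
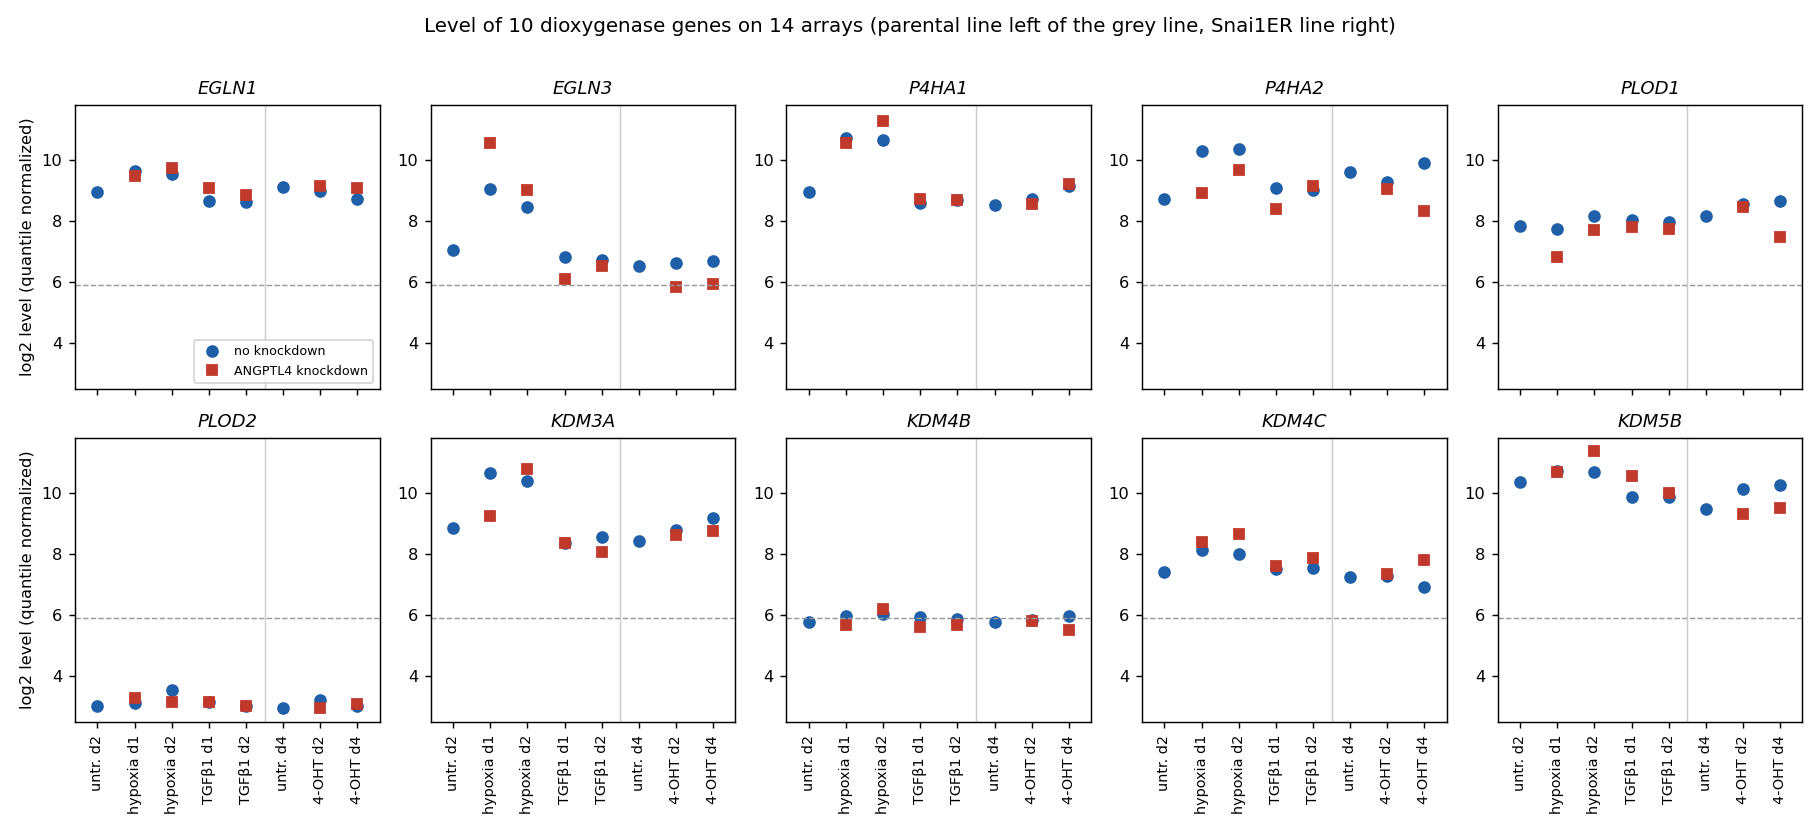
Log2 level (vertical axis, quantile normalized) of each of the 10 genes on each of the 14 arrays (horizontal axis, treatment and day), without (blue circles) and with (red squares) ANGPTL4 knockdown. The dashed line is the filter level of 5.90. The hypoxia points of EGLN3 (8.47 to 10.55) and P4HA1 (10.54 to 11.28) stand above all their other points, and PLOD2 lies near 3 on every array.

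EGLN1 is the main HIF prolyl hydroxylase in most cells. Its level was 8.95 on the untreated array, 9.64 and 9.54 on the hypoxia arrays of days 1 and 2, and 9.47 and 9.71 on those with knockdown. All 4 hypoxia arrays lay above the other 10, whose highest value was 9.13. The difference from the untreated array was 0.69 on day 1 and 0.58 on day 2 (1.61-fold and 1.499-fold), so EGLN1 just missed the 1.5-fold rule on day 2. The EGLN1 probe set carries the same deposited value, 9.14, on 2 arrays.

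EGLN3 is the HIF prolyl hydroxylase whose own gene is strongly raised in low oxygen in many cell types. Its level was 7.06 on the untreated array, 9.06 and 8.47 on the hypoxia arrays of days 1 and 2, and 10.55 and 9.01 on those with knockdown. On the 4 TGFβ1 arrays it was 6.82, 6.73, 6.11 and 6.53, and on the 5 Snai1ER arrays it was 5.83 to 6.70. The lowest hypoxia array was 1.41 above the highest of the other 10. Its highest level was on the hypoxia day 1 array with knockdown, the array that stood apart, and without that array the 3 others still lay above the other 10. Over the 14 arrays EGLN3 had the widest spread of the 10 genes, with an SD of 1.41.

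P4HA1, the widespread catalytic subunit of collagen prolyl 4-hydroxylase, was 8.94 on the untreated array, 10.72 and 10.64 on the hypoxia arrays, and 10.54 and 11.28 on those with knockdown. The differences without knockdown were 1.78 and 1.70, which is 3.44-fold and 3.25-fold. The other 10 arrays lay between 8.51 and 9.19, a gap of 1.35 below the lowest hypoxia array. P4HA2, the second catalytic subunit, was 8.73 on the untreated array and 10.29 and 10.34 on the hypoxia arrays (2.95-fold and 3.07-fold). With knockdown it was 8.90 and 9.65, differences of 0.17 and 0.92, so the hypoxia arrays overlapped the others, of which the untreated Snai1ER array stood at 9.60 and the 4-OHT day 4 array at 9.89.

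PLOD1 was 7.82 on the untreated array, 7.72 and 8.15 on the hypoxia arrays, and 6.83 and 7.69 on those with knockdown. Its hypoxia levels lay on both sides of the untreated one and reached the lowest of all 14 arrays on the hypoxia day 1 array with knockdown. PLOD2, which other cells raise in low oxygen, read 2.95 to 3.54 on the 14 arrays, with the highest value on hypoxia day 2. Its mean was at percentile 0.923 of all genes and no change can be read from this probe set.

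KDM3A was 8.86 on the untreated array and 10.64 and 10.39 on the hypoxia arrays (3.43-fold and 2.88-fold). With knockdown it was 9.25 on day 1 and 10.78 on day 2. The lowest of these, on the array that stood apart, was only 0.05 above the highest of the other 10 arrays (9.19, 4-OHT day 4), and as deposited the gap was -0.09. KDM4C was 7.43 on the untreated array, 8.12 and 8.005 on the hypoxia arrays, and 8.39 and 8.66 on those with knockdown, against 6.91 to 7.88 on the other 10. KDM4C differed from the untreated array by 1.62-fold on day 1 and 1.49-fold on day 2, just outside the rule, while the smallest fold inside it was the 2.66-fold of EGLN3 on day 2.

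KDM5B was 10.36 on the untreated array, 10.71 and 10.68 on the hypoxia arrays, and 10.69 and 11.38 on those with knockdown. The 4 hypoxia arrays were above the other 10, the highest of which was a TGFβ1 day 1 array with knockdown at 10.55. KDM4B read 5.50 to 6.19 on the 14 arrays, with a mean of 5.84 just below the filter. Its hypoxia differences were 0.19 and 0.25 without knockdown and -0.09 and 0.41 with it. Without the filter, the same count of 4 genes was past the rule, with 717 of 18417 genes past it in either direction. Dropping the filter added only PLOD2 and KDM4B, which both fell short of 1.5-fold.

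**Figure D2:**
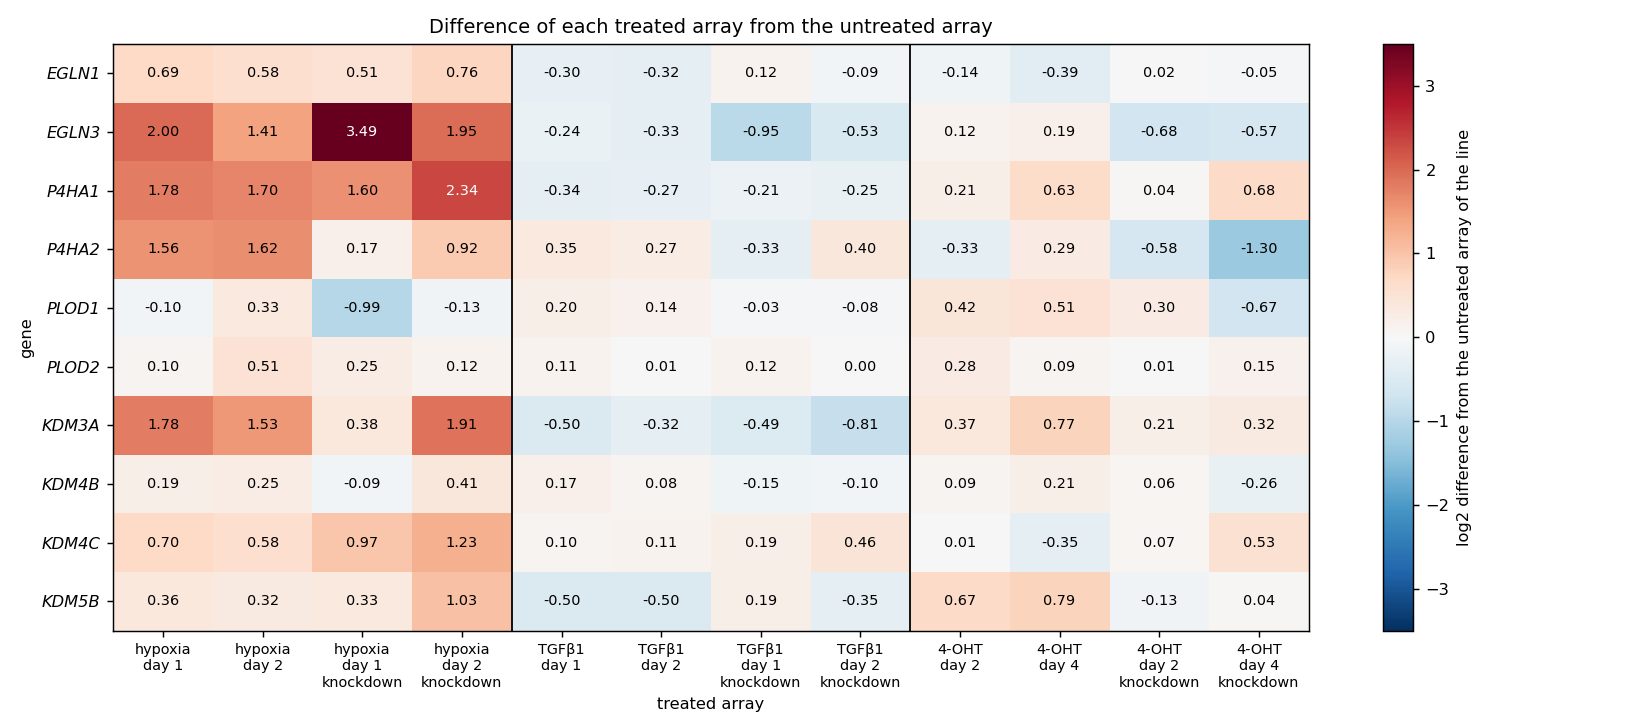
Log2 difference of each treated array (horizontal axis) from the untreated array of its line, for each gene (vertical axis), written in the cells and coloured from blue (lower) to red (higher). The strongest cells are in the hypoxia block, up to 3.49 for EGLN3 on day 1 with knockdown, and the TGFβ1 block lies between -0.95 and 0.46.

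In all, 6 of the 8 genes (EGLN1, EGLN3, P4HA1, KDM3A, KDM4C and KDM5B) had their 4 hypoxia arrays above the other 10, as had 203 of the 11050 genes (1.84%). As deposited these were 4 of the 8, without KDM3A and KDM5B, a count given here without the share of all genes, so it has no background. With arrays centred on their median they were 3 (EGLN3, P4HA1 and KDM4C), with 79 genes in all. Only EGLN3 and P4HA1 were at least 1.5-fold above the untreated array on all 4 hypoxia arrays, as were 62 of all genes (0.561%). With the 2 knockdown arrays in place of those without, 3 of the 8 were past the 1.5-fold rule upwards (EGLN3, P4HA1 and KDM4C) and 0 downwards, against 216 (1.95%) and 641 (5.8%) of all genes.

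The untreated parental array was compared with hypoxia in a limma fit over the 14 arrays, with treatment, knockdown and time as terms and the lone untreated array assumed to vary like the others. By limma with Benjamini-Hochberg adjustment, 0 of the 8 genes and 0 of all genes (0%) passed an adjusted p of 0.05. An unadjusted p under 0.05 was reached by 445 of the 11050 genes and by 6 of the 8. P4HA1 had the smallest adjusted p of the 8, 0.14, with a difference of 1.96 ± 0.28 (SE). The 95% interval was 1.34 to 2.59 for P4HA1, 0.67 to 3.55 for EGLN3, 0.77 to 2.66 for KDM3A and 0.60 to 2.51 for P4HA2.

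Hypoxia and TGFβ1 could be compared on 4 arrays against 4, which does not use the untreated array. EGLN1, EGLN3, P4HA1, KDM3A and KDM4C were higher on hypoxia by limma, and P4HA1 and EGLN3 differed most. Of all genes, 163 (1.48%) passed upwards and 237 (2.14%) downwards, and of the 8 genes 5 passed upwards and 0 downwards. As deposited, 201 genes passed upwards and 82 downwards, and with each array centred on its median 134 and 1116, as the median of all genes moved from -0.01 to 0.22 and -0.21.

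EGLN3 was 9.27 ± 0.89 (SD, n = 4) on hypoxia and 6.55 ± 0.32 on TGFβ1, a difference of 2.72 ± 0.39 (SE), or 6.60-fold (limma adjusted p = 0.00639). P4HA1 was 10.80 ± 0.33 against 8.67 ± 0.06, a difference of 2.12 ± 0.17, or 4.36-fold (limma adjusted p = 0.000393). KDM3A was 10.26 ± 0.70 against 8.34 ± 0.21, a difference of 1.93 ± 0.26 (limma adjusted p = 0.00392). The hypoxia and TGFβ1 arrays did not overlap in any of these genes, which were called on the same arrays. How many of all genes did not overlap in this way was not counted, so this is a description only. With the knockdown effect fitted for each treatment, P4HA1 kept its call (2.05, limma adjusted p = 0.0263), while EGLN3 (1.99, limma adjusted p = 0.0558) and KDM3A (2.06, limma adjusted p = 0.0518) lost theirs.

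EGLN1 was 9.59 ± 0.11 against 8.80 ± 0.21, a difference of 0.79 ± 0.14 (limma adjusted p = 0.0136). KDM4C was 8.30 ± 0.29 against 7.64 ± 0.17, a difference of 0.65 ± 0.16 (limma adjusted p = 0.0464). Both calls, though not the sizes, depended on single arrays. EGLN1 lost its call without the hypoxia day 2 array, either TGFβ1 array without knockdown, or the TGFβ1 day 2 array with knockdown (adjusted p 0.0567 to 0.0755), with differences of 0.75 to 0.78. KDM4C lost it without any 1 of 8 of the 12 treated arrays, namely each hypoxia or TGFβ1 array other than hypoxia day 1 with knockdown, and the 4-OHT day 2 array (adjusted p 0.0663 to 0.147), with differences of 0.58 to 0.71. Neither passed with arrays centred on their median (adjusted p 0.112 for EGLN1 and 0.152 for KDM4C) or with the knockdown effect fitted for each treatment (0.95 with adjusted p 0.0546 for EGLN1, and 0.53 with adjusted p 0.292 for KDM4C).

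P4HA2 was 9.79 ± 0.68 on hypoxia and 8.90 ± 0.34 on TGFβ1, a difference of 0.89 ± 0.26 that did not pass (limma adjusted p = 0.0846, 95% interval 0.33 to 1.46). Without the hypoxia day 1 array with knockdown the difference was 1.07 and passed (adjusted p = 0.0327). KDM5B differed by 0.80 ± 0.27 (adjusted p = 0.127, interval 0.21 to 1.39) and PLOD1 by -0.28 ± 0.25 (adjusted p = 0.571, interval -0.82 to 0.26), and neither passed. Without the 6 knockdown arrays, P4HA2 and KDM5B passed (adjusted p 0.0206 and 0.0232) and KDM4C did not (0.0848).

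**Figure D3:**
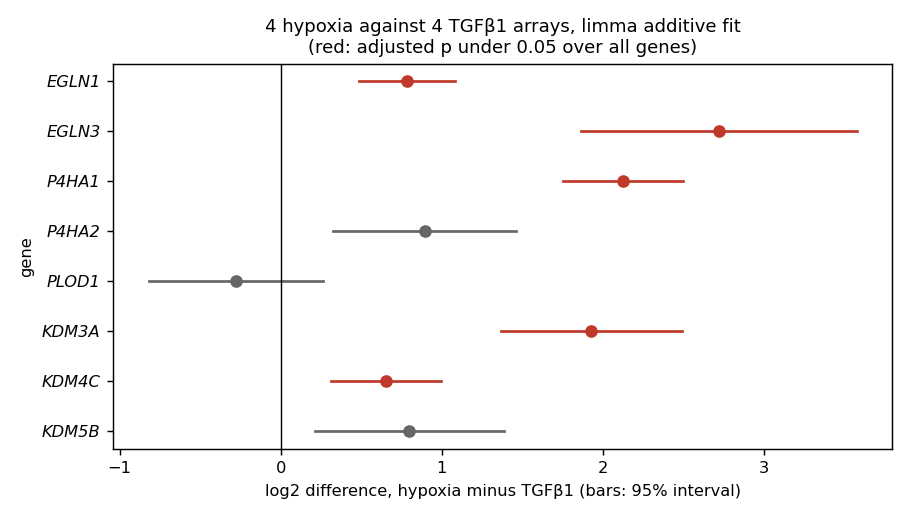
Log2 difference between 4 hypoxia and 4 TGFβ1 arrays (points, horizontal axis) with 95% intervals (bars) from the limma fit, for the 8 genes above the filter (vertical axis). Red marks an adjusted p under 0.05: EGLN1, EGLN3, P4HA1, KDM3A and KDM4C lie to the right of 0, and the interval of PLOD1 spans it.

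TGFβ1 moved none of the 8 genes past the 1.5-fold rule on both days, while 273 of all genes (2.47%) were higher and 361 (3.27%) lower. Without knockdown, the differences on days 1 and 2 were largest for KDM5B (-0.50 and -0.50) and KDM3A (-0.50 and -0.32). EGLN1, EGLN3 and P4HA1 differed by -0.34 to -0.24, P4HA2 by 0.35 and 0.27, PLOD1 by 0.20 and 0.14, and KDM4C by 0.10 and 0.11. These small differences depend on the scaling. As deposited, EGLN1, EGLN3, KDM3A and KDM5B were past the rule downwards, with 50 genes higher and 3565 lower in all. With arrays centred on their median 1 of the 8 was past it upwards, with 2490 genes higher and 206 lower, and the median gene at 0.35. By the limma fit, 0 genes (0%) differed between TGFβ1 and the untreated array. An unadjusted p under 0.05 was reached by 168 of the 11050 genes and by 0 of the 8.

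4-OHT in the Snai1ER line moved KDM5B past the rule, from 9.46 untreated to 10.13 on day 2 and 10.25 on day 4 (1.59-fold and 1.73-fold). Of all genes 257 (2.33%) were higher and 134 (1.21%) lower, and of the 8 genes 1 was higher and 0 lower. With knockdown KDM5B was 9.32 and 9.50, close to the untreated array. On day 4 alone, P4HA1 (8.51 to 9.14) and KDM3A (8.42 to 9.19) were also over 1.5-fold higher, with 0.21 and 0.37 on day 2. On that day alone 3 of the 8 genes were past 1.5-fold upwards and 0 downwards, against 1191 (10.8%) and 1129 (10.2%) of all genes. P4HA2 was 9.60 untreated, 9.27 and 9.89 with 4-OHT, and 9.03 and 8.31 with 4-OHT and knockdown. EGLN3 was 6.51 untreated, 6.63 and 6.70 with 4-OHT, and 5.83 and 5.94 with knockdown. By the limma fit 0 genes (0%) differed between 4-OHT and the untreated Snai1ER array. An unadjusted p under 0.05 was reached by 249 of the 11050 genes and by 0 of the 8. The untreated array of day 4 is the reference for both days, so the 4-OHT day 2 values also hold a difference in time.

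The untreated arrays of the 2 lines differ in transgene, day and line, with 1 array each and no test. On the Snai1ER array P4HA2 differed from the parental one by 0.88, KDM5B by -0.90 and EGLN3 by -0.55, and the other 7 genes by -0.44 to 0.33.

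ANGPTL4 knockdown was compared in 6 pairs of arrays matched by treatment and time. By limma on the pairs, 0 of the 8 genes passed, while 97 of all genes did (0.878%, 10 higher and 87 lower). At an unadjusted p under 0.05 there were 2103 of the 11050 genes, P4HA2, PLOD1 and KDM4C among them. As deposited, 5 genes were higher and 9 lower, and with arrays centred on their median 20 and 1171. In that last setting P4HA2 and PLOD1 passed as lower (-1.01 and -0.73, adjusted p 0.025 and 0.0272).

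P4HA2 was lower with knockdown in 5 of 6 pairs, with differences of -1.39 and -0.69 on hypoxia days 1 and 2, -0.68 on TGFβ1 day 1, and -0.24 and -1.58 on 4-OHT days 2 and 4. On TGFβ1 day 2 it was 0.13 higher, and the mean over pairs was -0.74 ± 0.22 (SE, limma adjusted p = 0.136). PLOD1 was lower in 6 of 6 pairs (-1.18 to -0.12), with a mean of -0.52 ± 0.17 (adjusted p = 0.157). KDM4C was higher in 6 of 6 pairs (0.06 to 0.89), with a mean of 0.39 ± 0.14 (adjusted p = 0.197). These directions depend on the scaling: as deposited PLOD1 was lower in 4 of 6 pairs, the TGFβ1 pairs being higher. With arrays centred on their median KDM4C was higher in only 2 of 6. How many of all genes went 1 way in as many pairs was not counted, so these pair counts have no background.

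EGLN3 moved in opposite directions: with knockdown it was 1.49 and 0.54 higher on hypoxia days 1 and 2, and differed by -0.80 to -0.20 in the other 4 pairs. As deposited, the TGFβ1 day 2 pair of EGLN3 was higher too (0.50), and with arrays centred on their median it was lower (-0.38). The test of that difference, an interaction term between the 2 hypoxia pairs and the 4 others, gave 1.64 ± 0.34 (SE) with a limma adjusted p of 0.433. No gene passed that test (0%), and 930 of the 11050 genes and 1 of the 8, EGLN3, had an unadjusted p under 0.05. Without the hypoxia day 2 pair EGLN3 passed (2.11, adjusted p = 0.0397), which leaves the day 1 pair, whose knockdown array stood apart, as the only hypoxia pair. KDM3A differed with knockdown by -1.40 on hypoxia day 1 and by 0.39 on day 2. KDM5B differed by 0.71 and 0.69 on hypoxia day 2 and TGFβ1 day 1, and by -0.81 and -0.75 on 4-OHT days 2 and 4. EGLN1 and P4HA1 stayed within -0.18 and 0.64 in all pairs.

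**Figure D4:**
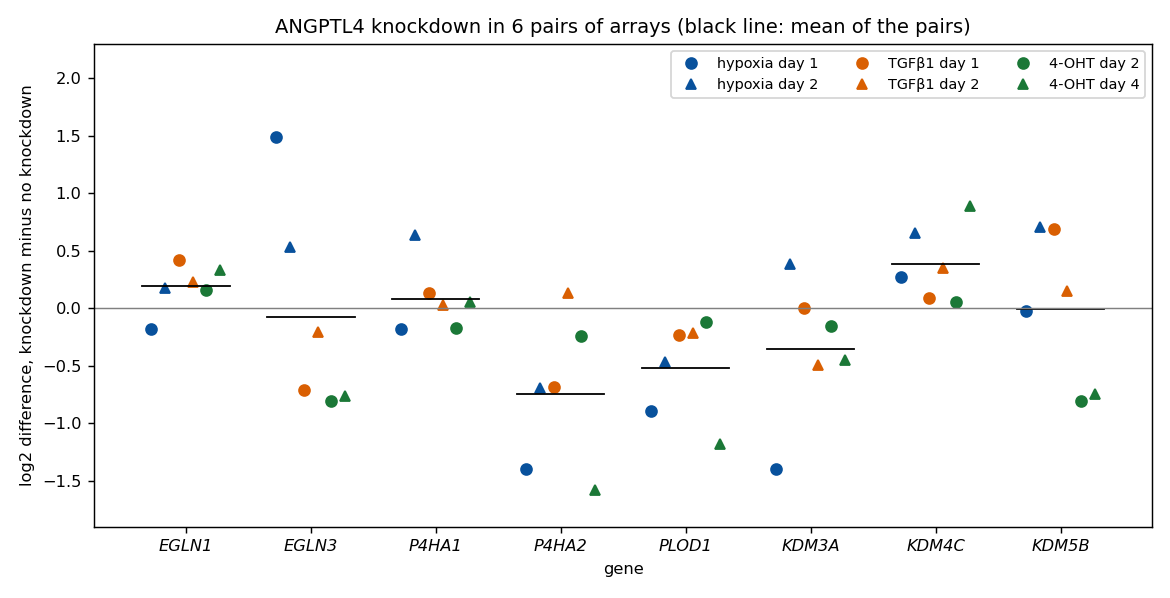
Log2 difference between the arrays with and without ANGPTL4 knockdown (vertical axis) in each of 6 pairs (blue hypoxia, orange TGFβ1, green 4-OHT, circles for the earlier and triangles for the later day) for the 8 genes above the filter (horizontal axis), with the mean of the pairs as a black line. On this quantile-normalized scale PLOD1 is below 0 and KDM4C above 0 in every pair, and EGLN3 is above 0 in the hypoxia pairs only; as deposited PLOD1 is above 0 in the TGFβ1 pairs and EGLN3 in the later of them, and with arrays centred on their median KDM4C is above 0 in 2 pairs.

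Other genes around these enzymes were counted by the same rules. Of 18 other hydroxylases above the filter, 1 was past the hypoxia rule upwards and 0 downwards: JMJD6, which hydroxylates lysines of splicing factors, at 1.004 and 0.823, but at -0.70 and 0.02 on the knockdown arrays. OGFOD1, which hydroxylates a proline of a ribosomal protein, was lower on hypoxia than on TGFβ1 (-0.93, limma adjusted p = 0.0136). Of 13 other JmjC demethylases 2 were higher and 0 lower, KDM7A (1.37 and 0.82) and KDM6A, which removes the Polycomb mark of histone H3 (0.61 and 0.77), and 0 passed against TGFβ1. On the knockdown arrays of days 1 and 2, KDM7A was at -1.27 and 1.07 and KDM6A at 0.17 and 0.72. Of 11 nucleic acid dioxygenases 0 were higher and 1 lower, ALKBH8, which modifies transfer RNA, at -1.003 and -1.085. ALKBH8 was at 0.66 and 0.64 on TGFβ1 and was lower on hypoxia than on TGFβ1 (-1.92, limma adjusted p = 0.00303).

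The median hypoxia difference was 1.11 over the 8 genes and -0.03 over all genes above the filter. It was -0.11 over the other hydroxylases, 0.10 over the other JmjC demethylases and -0.06 over the nucleic acid dioxygenases. It was 1.09 over 17 reference hypoxia target genes, of which 14 were past the rule upwards and 0 downwards, led by ALDOC, an aldolase of glycolysis (2.59 and 2.68), NDRG1 (2.27 and 2.63), ANKRD37 (2.57 and 2.12) and ENO2, an enolase (2.36 and 1.87). With knockdown ALDOC was at -0.63 on day 1 and 3.27 on day 2 of hypoxia. KDM7A is in that list and in that of the JmjC demethylases. Against TGFβ1, 11 of the 17 passed upwards and 0 downwards by limma. These targets were listed because low oxygen is known to raise them in many cells. The 8 genes and all lists were chosen with earlier results of these data known. The contrast between their medians is therefore a description and not a test.

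**Figure D5:**
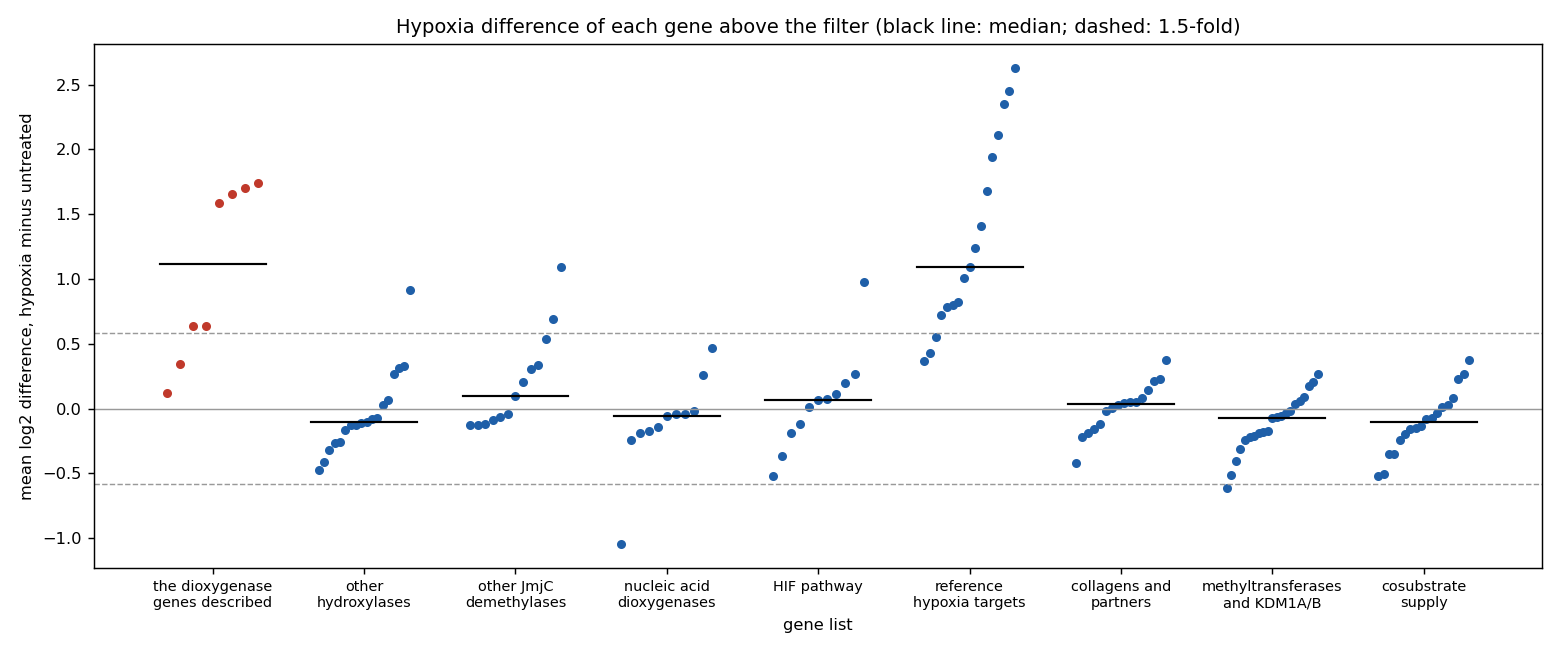
Mean log2 difference of the 2 hypoxia arrays without knockdown from the untreated array (vertical axis) for each gene above the filter, by list (horizontal axis), with the median of each list as a black line and dashed lines at 1.5-fold. The medians are 1.11 for the dioxygenase genes described and 1.09 for the reference targets, and lie between -0.11 and 0.10 for the other lists.

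In the HIF pathway, 1 of 11 genes was past the hypoxia rule upwards, CITED2, which competes with HIF for its coactivator (0.83 and 1.13), and 0 downwards. On the knockdown arrays of days 1 and 2, CITED2 was at -0.25 and 0.58. HIF1A itself was at -0.39 and -0.65, and lowest on the 4 hypoxia arrays, without a call. Of 16 collagen chains and partners of the hydroxylases, 0 were past the hypoxia rule in either direction. P4HB, the partner subunit of P4HA1 and P4HA2, was at 0.20 and 0.55, but at -0.73 and -0.11 on the knockdown arrays. COL12A1 was past the TGFβ1 rule downwards (-1.57 and -1.64), and the lysyl oxidases LOXL2 (1.11 and 1.49) and LOXL4 (0.75 and 0.73) were past the 4-OHT rule upwards.

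Of 21 genes in a list of histone lysine methyltransferases and the flavin-dependent demethylases KDM1A and KDM1B, 0 were past the hypoxia rule. The methyltransferase SUV39H2, which sets a mark of silent chromatin, was lower on hypoxia than on TGFβ1 (-0.85, limma adjusted p = 0.0472). Of 18 genes that supply or use 2-oxoglutarate, succinate, fumarate, ascorbate and iron, 0 were past the hypoxia rule. IDH1, the cytosolic enzyme that makes 2-oxoglutarate, was past the TGFβ1 rule downwards (-1.49 and -1.33) and the 4-OHT rule upwards (0.80 and 1.13). IDH2, its mitochondrial counterpart, was past the 4-OHT rule upwards (1.33 and 1.59). GOT2, a mitochondrial aminotransferase that uses 2-oxoglutarate, was lower on hypoxia than on TGFβ1 (-0.70, limma adjusted p = 0.0276). SDHC, a subunit of succinate dehydrogenase, was lower with knockdown (-0.74, limma adjusted p = 0.0444). Single genes outside the 8, SDHC, SUV39H2, GOT2, OGFOD1 and ALKBH8 among them, were not followed through the alternative settings. EGLN2, the remaining HIF prolyl hydroxylase, has no probe set of a single symbol and was not analysed here.

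Likeness was measured as Pearson's r over the 14 arrays, a description in which all points share the same arrays. The genes most like P4HA1 were PDK1 (0.98), ERRFI1 (0.96) and ZNF841 (0.95), and those most like KDM3A were ALDOC (0.97), ZNF160 (0.96) and ERRFI1 (0.95). EGLN3 was most like PSORS1C3 (0.94), PIM3 (0.93) and ZNF616 (0.93), and P4HA2 was most like ELL2 (0.89), CITED2 (0.89) and PPP1R15A (0.88). Among the 8 genes the highest r was that of P4HA1 and KDM3A (0.93), and PLOD1 had an r below 0 with each of the others except P4HA2 (0.35).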

How the data were processed

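The deposited values are log2 expression values of 33297 probe sets on 14 arrays, which the authors made with RMA in Partek (versions not given in the sources used here). NuGEN kits amplified and labelled the RNA. Arrays were grouped by treatment, day and knockdown in their labels. All arrays were quantile normalized again with limma 3.58.1 in R 4.3.3. Of the probe sets, 21214 are annotated, 19460 with 1 symbol, which were averaged to 18417 genes, and 11050 genes with a mean at or above the 40th percentile (5.90) were kept. In 29.6% of the probe sets, at least 2 of the 14 arrays share a value.

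With 1 array per condition, size rules carry no test. The limma additive fit had 5 treatment groups, 1 knockdown effect and 1 time effect (7 residual degrees of freedom). Knockdown was fitted on 6 pairs (5 degrees of freedom, or 4 with the interaction). P-values were Benjamini-Hochberg adjusted over the 11050 genes. Arrays are not known to come from separate cultures, so p-values measure only the spread between these arrays, and their number limits the precision. The fits were run on simulated arrays with known changes and independent noise. These held no shift in array scale, no outlying array and no knockdown effect that varied by treatment, so they do not bear on those features. Alternatives covered scaling, filter, probe set choice, fold rule, time, model and left-out arrays. The genes and lists were chosen with earlier results of these data known. All 10 genes are named, with up to 4 genes per list that passed a rule, taken by the size of their hypoxia difference, and the 3 genes most like each of the 4 genes of widest spread. HIF1A, P4HB, SNAI1, EGLN2 and markers were named in addition. Promoter sequences and gene positions are from RefSeq (GRCh38.p14).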

Additional observations from a re-analysis of the deposited data

Results flagged for a closer look

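The difference in the knockdown response of EGLN3 between hypoxia and the other treatments drew attention because the pairs moved in opposite directions. After quantile normalization both hypoxia pairs went upwards and the 4 other pairs downwards. As deposited 3 pairs were higher and 3 lower, with the TGFβ1 day 2 pair at 0.50. The interaction term was 1.64 ± 0.34 (SE, log2), with an unadjusted limma p of 0.00102 and an adjusted p of 0.433, so the difference did not pass over all genes. The adjusted p over the alternatives was between 0.0397 (leaving out the day 2 hypoxia pair) and 0.999 (leaving out that of day 1). The largest single difference, 1.49, came from the hypoxia day 1 knockdown array, which stood apart from the rest. Without that pair the difference was 1.16.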

How the results depend on the processing

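Among the 8 genes, no difference called by limma changed sign in the alternatives run. Differences past the size rules were not compared for sign, and the TGFβ1 counts went opposite ways with the scaling. The count of genes among the 8 past the hypoxia rule stayed at 4 under both other scalings, both other filters, the brightest probe set, the 2-fold rule and day 2 alone. The filters and the brightest probe set could not change it. Each gene has 1 probe set, all 8 lie above the stricter filter, and PLOD2 and KDM4B missed the rule. The count was 6 on day 1 alone and 3 on the knockdown arrays. Among all genes the rule called 550 in either direction, 514 as deposited, 494 centred and 110 at 2-fold. Day 1 alone called 856, day 2 alone 1143 and the knockdown arrays 857. For TGFβ1 the count among the 8 was 0, but 4 as deposited (all lower) and 1 with arrays centred on their median (higher). Of all genes, 50 were higher and 3565 lower on TGFβ1 as deposited, and 2490 and 206 centred. Against TGFβ1, 201 were higher and 82 lower on hypoxia as deposited, and 134 and 1116 centred. For 4-OHT it was 1, but 0 under the 2-fold rule, 3 on day 4 alone (with 2320 genes in all) and 0 on the knockdown arrays. Between hypoxia and TGFβ1 it was 5, but 3 with arrays centred, 1 with the knockdown effect fitted for each treatment, and 3 to 6 with each treated array left out in turn. As deposited and without the 2 lower TGFβ1 arrays, a setting chosen after seeing the data, it was 0, with 0 genes called in all. The knockdown count was 0, but 2 with arrays centred, and the interaction count was 0 to 1 with each pair left out. The count with all hypoxia arrays above the others was 6, and 3 with arrays centred; all 4 alternatives to it were chosen after seeing the data. Over 20 alternatives, the hypoxia and TGFβ1 difference had an adjusted p under 0.05 in 19 for P4HA1, 18 for EGLN3 and for KDM3A, 13 for EGLN1, 7 for KDM4C, 2 for P4HA2, 1 for KDM5B and 0 for PLOD1. Some of the 20 could not change the difference itself and bore only on its p-value. These were leaving out a 4-OHT array, no filter, the brightest probe set and a variance that follows the mean level. Genes called in all between hypoxia and TGFβ1 numbered 400, and 1250 with arrays centred, 101 with the knockdown effect fitted for each treatment, 1137 without the 6 knockdown arrays, and 49 (without TGFβ1 day 1) to 775 (without hypoxia day 1 with knockdown) with 1 array left out. Knockdown called 97 genes, and 14 as deposited, 1191 centred, 326 without the pair block, and 0 (without the hypoxia day 2 pair) to 427 (without the hypoxia day 1 pair) with 1 pair left out. Leaving the hypoxia day 2 pair out of the interaction raised its count of genes from 0 to 226. The causes were not tested. No paired analysis by replicate number was possible because each condition has 1 array.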
